A study of Mus musculus with 44 samples.

Results

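Heat shock proteins and their partner chaperones were followed across mouse embryonic stem (ES) cells that carried an inserted copy of the homeodomain transcription factor Hex (gene symbol Hhex) or of the fusion HexERTVP2. The set was named by gene symbol: Hspa1a, Hspa1b, Hspa8, Hsph1, Hsp90aa1, Hsp90ab1, Dnaja1, Dnajb1, Hspd1 and Hspe1. All probe sets carrying 1 of these symbols in the platform annotation were taken, whatever their values. This gave 11 probe sets for 9 of the 10 genes, out of 12422 probe sets tested and 8251 gene symbols on the array. Hsp90aa1 and Hspd1 had 2 probe sets each, which were kept apart, and Hsp90ab1, the constitutive cytosolic HSP90, is not analysed here because no probe set carried its symbol. No filter on low values was used, so all 11 probe sets were tested.

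The series holds 44 single-channel Affymetrix MG-U74Av2 arrays of total RNA from the CGR8 ES cell line, clone cgr8.8, and 40 of them fell into 11 groups by their labels. There were 4 arrays of cells with Hex at Rosa26 after recombination and 4 of the same design before recombination. The fusion HexERTVP2, also at Rosa26, was studied in 2 clones. Clone 2 had 3 arrays in each of 4 states, recombined with 4-hydroxytamoxifen (4-OHT), recombined without it, unrecombined with it and unrecombined without it, and clone 1 had 4, 4, 3 and 5 arrays in these states. The control was 4 arrays of wild-type CGR8.8 cells, which carry neither insert. The labels give no dose or time of 4-OHT and do not say how recombination was brought about. Whether the replicate arrays were separate cultures is not stated either, and p-values therefore cover the spread between arrays, which may be technical. The labels name no clone for the Hex cells, so a difference between clones and one between recombination states cannot be told apart there. Rosa26 is transcribed in nearly all mouse tissues and is widely used for inserts. The ERT part of such fusions is an oestrogen receptor domain that binds 4-OHT, and VP2 is a viral transcriptional activation domain. The series' design text names the search for Hex target genes as its aim.

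Heat shock proteins bind unfolded or partly folded proteins and let them fold, move or be degraded. The HSP70 proteins work in a cycle of ATP hydrolysis that J-domain proteins of the HSP40 family start and that HSP110 proteins reset by exchanging the nucleotide, and they hand part of their clients to HSP90. When unfolded protein builds up, heat shock factor HSF1 binds repeats of the motif GAA in alternating orientation, called heat shock elements, and raises transcription of the inducible members, while the constitutive members are abundant without stress. Undifferentiated ES cells are known for high levels of constitutive chaperones.

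Because the inducible members are known to be read through heat shock elements, the 250 bases before each annotated start were searched in the RefSeq promoter table of the mouse assembly GRCm38.p6. The files name no genome build, and the table was used for sequence and position only. It held 12 windows for 7 of the 10 genes, and Hspa8, Hsp90aa1 and Hsp90ab1 had no entry. The motifs searched were GAANNTTC and TTCNNGAA, each of which reads the same on both strands and which overlap by 3 letters where they follow each other. Either motif was present in 7 of the 12 member windows, against 12.8% of all 32817 windows of the same length. The 7 belonged to 6 of the 7 genes, and no Dnajb1 window held it. They are not 7 separate sites: the Hsph1 windows overlap and hold the same match, and Hspd1 and Hspe1 share theirs. The Hspa1a and Hspa1b windows are near copies of each other. Both motifs overlapping, that is, 3 units in a row, were present in 0.466% of all windows. The windows of Hspa1b (chr17:34959239-34959488, minus strand) and Hspa1a (chr17:34972157-34972406, minus strand) are shown first. These genes were called higher in recombined Hex than in both unrecombined Hex and wild-type cells. That of Hsph1 (chr5:149636337-149636586, minus strand) is shown because this gene moved the other way in part of the analyses. Capitals mark the motif.
Hspa1b: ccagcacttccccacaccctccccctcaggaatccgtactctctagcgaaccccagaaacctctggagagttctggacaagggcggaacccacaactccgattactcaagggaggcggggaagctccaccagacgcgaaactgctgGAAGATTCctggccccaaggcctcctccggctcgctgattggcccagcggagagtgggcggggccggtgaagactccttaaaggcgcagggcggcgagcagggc
Hspa1a: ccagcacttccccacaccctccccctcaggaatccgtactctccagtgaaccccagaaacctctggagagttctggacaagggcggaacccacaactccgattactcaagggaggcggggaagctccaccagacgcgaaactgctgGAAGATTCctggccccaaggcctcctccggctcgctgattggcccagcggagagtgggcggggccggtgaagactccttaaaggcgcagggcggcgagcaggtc
Hsph1: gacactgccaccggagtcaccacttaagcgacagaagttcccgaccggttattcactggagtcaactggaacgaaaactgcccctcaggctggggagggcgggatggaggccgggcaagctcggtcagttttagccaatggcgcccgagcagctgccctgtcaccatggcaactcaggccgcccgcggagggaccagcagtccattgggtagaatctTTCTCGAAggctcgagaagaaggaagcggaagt
Hspa1b and Hspa1a are neighbouring genes on chromosome 17, at chr17:34956429-34959238 and chr17:34969359-34972156. Their windows were identical at 247 of 250 positions and differed at 3. Both held GAAGATTC at positions -104 to -97 counted from the start.

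Hspd1 and Hspe1, the mitochondrial chaperonin and its lid, lie head to head on chromosome 1 at chr1:55077833-55088243 and chr1:55088148-55091317. The stretch chr1:55088044-55088091 held 3 overlapping motifs in a row, and it falls within the window of one annotated start of each gene. It is shown on both strands because the pair has the longest run of the motif among the members and yet, as given below, neither gene passed the test in any of the 11 comparisons with or without array 2 of unrecombined Hex. Capitals mark the run.
Hspe1: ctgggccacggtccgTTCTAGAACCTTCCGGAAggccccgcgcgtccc
Hspd1: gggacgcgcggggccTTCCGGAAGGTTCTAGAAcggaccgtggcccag
A match describes these letters and is not evidence that a factor binds there.

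Median intensity ran from 106 to 112 over the 40 arrays. Replicate 2 of unrecombined Hex, called array 2 here, was unlike the rest: it correlated with the others at a mean Pearson r of 0.869, against 0.978 to 0.990 for the other 39, and the SD of its log2 values was 1.60, against 1.79 to 1.98. Because all groups share 1 estimate of spread per probe set, that array entered every comparison. Counts of members called are given with and without it, as is every member whose call it changed. The ES cell label fitted the markers, since 14 of 15 pluripotency genes, Pou5f1, Nanog and Sox2 among them, lay above the median probe set. Other cell types gave fewer: 4 of 11 for fibroblast or feeder genes, 4 of 9 for primitive and visceral endoderm, 1 of 4 for mesoderm, 1 of 5 for neuroectoderm and 2 of 5 for trophoblast. The Hhex probe set, the gene of both inserts, did not pass in any of the 11 comparisons, with or without array 2, and averaged 6.25 ± 0.15 in recombined Hex cells, 5.89 ± 0.64 in unrecombined Hex cells and 6.14 ± 0.06 in wild-type cells (log2 intensity, SD, n = 4 each). Whether it lies within the inserted sequence is not known here, so it does not check the labels. No detection calls were used here, so no member is shown to exceed background, and levels of different probe sets are not compared.

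All values that follow are log2 intensities of single probe sets, and changes are differences of group means on that scale. Tests are limma's moderated two-sided test across all groups, with Benjamini-Hochberg adjustment over the 12422 probe sets and a threshold of 0.05, and errors of changes are standard errors (SE).

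Among the members, the stress-inducible HSP70 pair rose in cells with recombined Hex and Hspa8, Hsp90aa1, Dnaja1, Hspd1 and Hspe1 passed in no comparison of the Hex and wild-type groups, with or without array 2. A test for any difference among the 11 groups called 2 of 11 member probe sets, Hspa1a (adjusted p = 8.64e-08) and Hspa1b (adjusted p = 2.67e-07), where 5.17% of all probe sets were called. Without array 2 of unrecombined Hex it called 3, adding Hsph1 (adjusted p = 4.64e-04), where 12.9% of all were called. For Hspa1b and Hspa1a the recombined Hex group had the highest mean of the 11 groups, and for both its arrays did not overlap those of wild type, the next group in the order. All later neighbours in both orders overlapped.

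Hspa1b encodes the stress-inducible cytosolic HSP70, identical or nearly so in protein to the product of Hspa1a. Its 4 arrays of recombined Hex cells read 8.26, 8.62, 8.15 and 8.11, against 6.90, 6.33, 6.90 and 6.70 in unrecombined Hex cells. Wild-type cells read 7.27, 7.24, 7.53 and 7.34. Every recombined Hex array lay above every array of both other groups, and every unrecombined Hex array lay below every wild-type array. The group means were 8.29 ± 0.23 in recombined Hex cells, 6.70 ± 0.27 in unrecombined Hex cells and 7.34 ± 0.13 in wild-type cells (SD, n = 4 each). Recombined Hex exceeded unrecombined Hex by 1.58 (SE 0.14, adjusted p = 3.40e-09) and wild type by 0.94 (SE 0.14, adjusted p = 1.73e-04). Unrecombined Hex was below wild type by -0.64 (SE 0.14, adjusted p = 0.00564), so part of the first difference lay in the low values of the unrecombined cells. Without array 2, which had the lowest Hspa1b value of all 40, these changes were 1.45 (adjusted p = 1.40e-08), 0.94 (adjusted p = 3.02e-05) and -0.51 (adjusted p = 0.0327).

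Hspa1a, its neighbour and near-identical copy, had the same order with a smaller spread. Recombined Hex cells read 7.62, 7.73, 7.59 and 7.66, against 7.15, 6.78, 6.99 and 6.84 in unrecombined Hex cells. Wild-type cells read 7.13, 7.04, 7.16 and 7.12. Again no recombined Hex array overlapped the other groups, while unrecombined Hex and wild type overlapped in 1 array. The change was 0.71 against unrecombined Hex (SE 0.07, adjusted p = 6.43e-08) and 0.54 against wild type (SE 0.07, adjusted p = 5.56e-05). Unrecombined Hex did not pass against wild type (-0.18, SE 0.07, adjusted p = 0.158). Without array 2 these changes were 0.66 (adjusted p = 2.90e-07), 0.54 (adjusted p = 6.29e-06) and -0.12 (adjusted p = 0.668). The transcripts of the 2 genes are near-identical, and which probe set measures which gene rests on the platform annotation, so the 2 results are not shown to be separate.

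**Figure D1:**
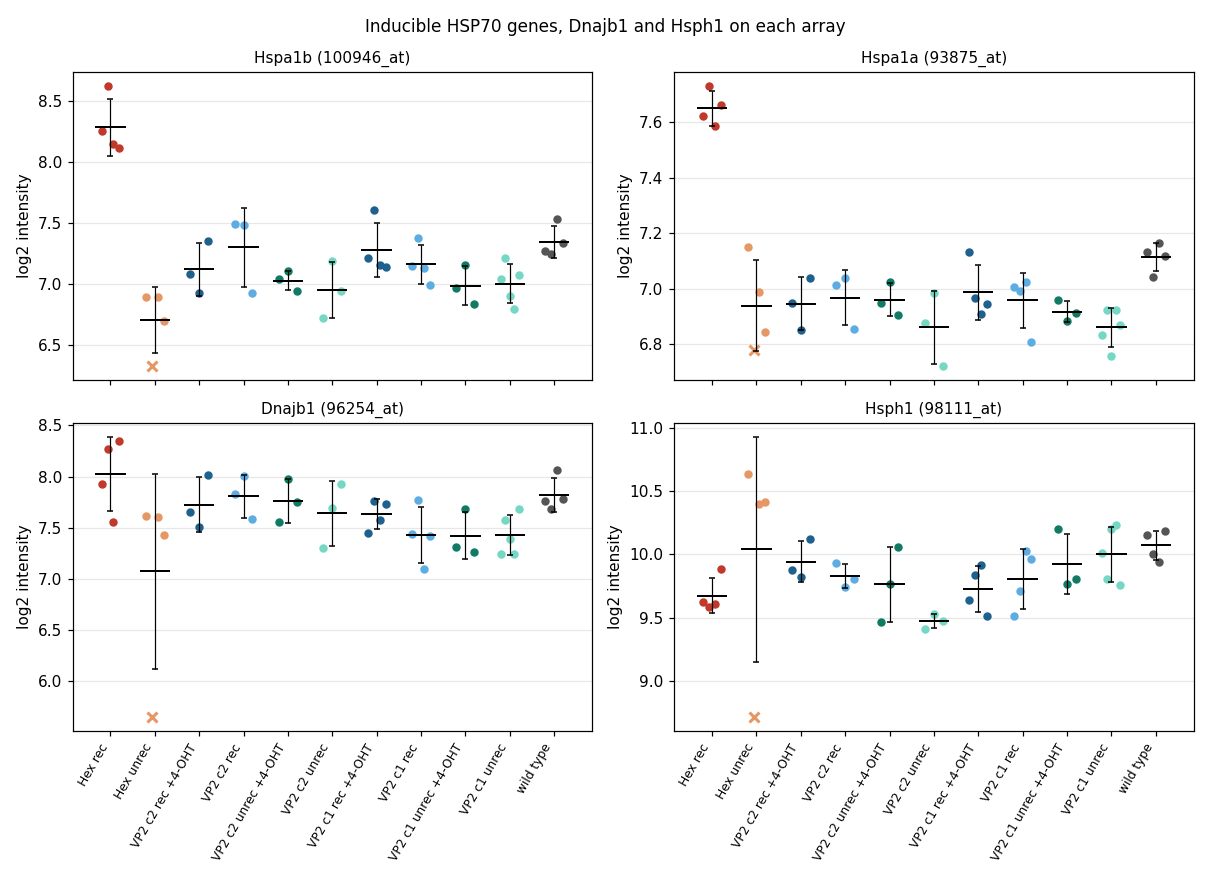
Log2 intensity (vertical axis) of the Hspa1b, Hspa1a, Dnajb1 and Hsph1 probe sets in each of 40 arrays, grouped along the horizontal axis with wild type last (c1 and c2 are the HexERTVP2 clones). Points are arrays, the cross is array 2 of unrecombined Hex, and bars give the mean ± SD. For Hspa1b the 4 recombined Hex arrays lie between 8.11 and 8.62, above all other arrays, and for Hspa1a between 7.59 and 7.73.

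Dnajb1 encodes an inducible J-domain protein that delivers clients to HSP70 and is a known HSF1 target, at chr8:83608175-83612653 on the same assembly. Recombined Hex cells read 7.93, 8.27, 7.55 and 8.35, against 7.61, 5.65, 7.61 and 7.43 in unrecombined Hex cells. Wild-type cells read 7.77, 7.68, 8.06 and 7.78. The lowest recombined array lay within the unrecombined range, and recombined Hex and wild type overlapped. Dnajb1 passed against unrecombined Hex with all arrays (0.95, SE 0.26, adjusted p = 0.0326) and not without array 2, whose value of 5.65 was the lowest of the 40 (0.47, SE 0.17, adjusted p = 0.101). Against wild type the change was 0.20 (SE 0.26, adjusted p = 0.776, or 0.489 without array 2).

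Hsph1 encodes an HSP110 protein, a nucleotide exchange factor of HSP70. The gene lies at chr5:149616843-149636498. Recombined Hex cells read 9.63, 9.58, 9.60 and 9.88, against 10.64, 8.71, 10.40 and 10.41 in unrecombined Hex cells. Wild-type cells had 9.94 as the lowest, 10.08 as the median and 10.19 as the highest value. All 4 recombined arrays lay below all wild-type arrays and below 3 of the 4 unrecombined arrays, the exception being array 2. With all arrays the change against unrecombined Hex was -0.37 (SE 0.23, adjusted p = 0.438), and without array 2 it was -0.81 (SE 0.14, adjusted p = 1.90e-04). Against wild type it was -0.40 and did not pass with all arrays (adjusted p = 0.633) or without array 2 (adjusted p = 0.110). The lowest group of all was unrecombined clone 2 of HexERTVP2 without 4-OHT, at 9.41, 9.52 and 9.47.

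In the comparison of recombined with unrecombined Hex, 3 of 11 member probe sets passed, all higher, where 3.37% of all probe sets passed, 2.59% higher and 0.781% lower. Without array 2 there were also 3, of which 2 were higher and 1 lower, where 6.26% of all probe sets passed, 2.35% higher and 3.91% lower. Against wild type, recombined Hex had 2 of 11 called, Hspa1b and Hspa1a, where 0.266% of all probe sets were called (1.37% without array 2, with the same count of 2). The median change of the 11 probe sets against unrecombined Hex was 0.05, beside 0.01 over all probe sets, and without array 2 it was -0.01, beside 0.04. Unrecombined Hex against wild type called 1 member, Hspa1b, where 4.82% of all probe sets were called (3.63% without array 2, again 1 member). The 3 comparisons share arrays.

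Markers of cell state moved in the same comparisons. Between recombined and unrecombined Hex, 3 of 15 pluripotency genes passed, all higher: Dppa3, a gene of naive pluripotency and the germ line, at 1.78 (adjusted p = 4.15e-08), the pluripotency factor Nanog at 0.65 (adjusted p = 0.00830) and Klf2 at 0.53 (adjusted p = 0.00127). Of the other lists, Nes was higher at 0.65 and Neurod1 lower at -0.71 among 5 neuroectoderm genes, Tfap2c was higher at 0.60 among 5 trophoblast genes, and 0 passed among 11 fibroblast, 9 endoderm and 4 mesoderm genes. Without array 2 the 6 calls held, with Dppa3 at 1.45 and Nanog at 0.43, and Fgf4, Dppa5a and Nr0b1 passed as lower. Unrecombined Hex against wild type had 5 of 15 pluripotency genes lower, Dppa3 at -2.17 and Nanog at -0.97 among them, and without array 2 Nanog and Dppa3 lower and Fgf4 higher. Recombined Hex against wild type, the comparison in which Hspa1b and Hspa1a were also higher, had no marker of any list past the threshold, with or without array 2. The mean over the 15 pluripotency genes ran from 9.64 to 9.98 in recombined Hex arrays, from 9.81 to 9.86 in unrecombined Hex arrays other than array 2, which read 8.74, and from 9.95 to 9.99 in wild-type arrays. Array 2 also had the highest mean of the 40 arrays for the fibroblast (7.01), endoderm (7.17), mesoderm and trophoblast (6.71) genes. For the neuroectoderm genes it had the lowest mean, 6.02, beside 6.03 at the lowest among the other arrays. The part of these markers in the member changes was not tested.

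**Figure D2:**
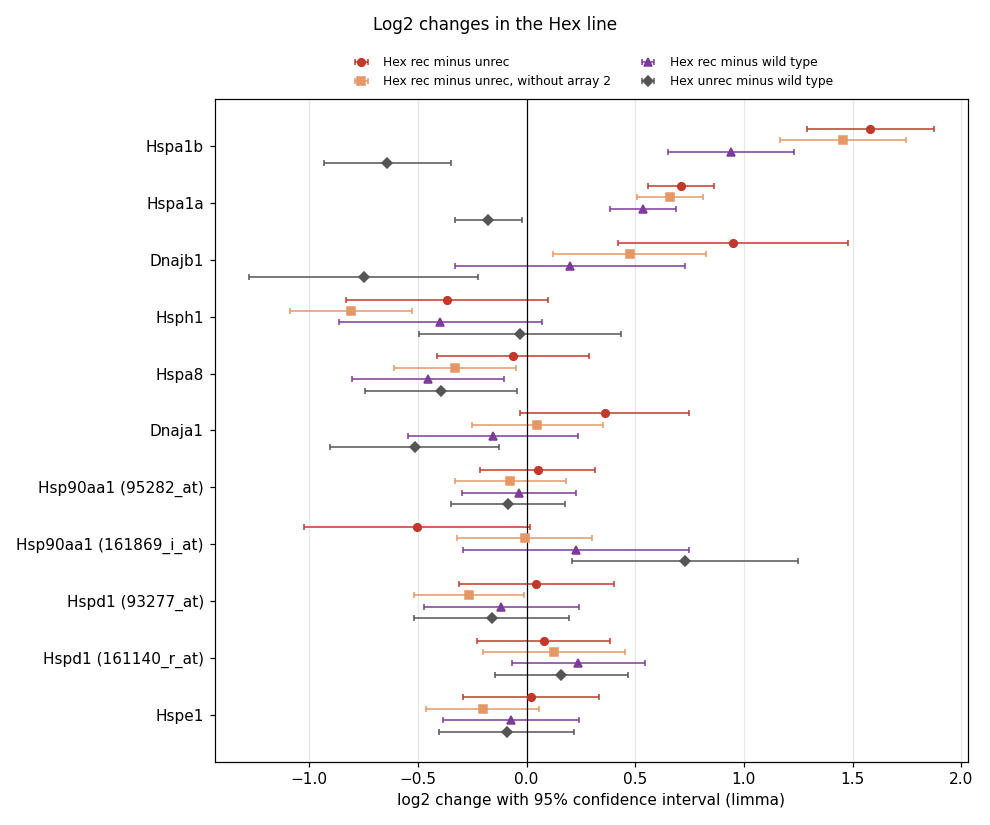
Log2 change (horizontal axis, with the 95% confidence interval from the fit) of the 11 member probe sets in the comparisons of recombined Hex with unrecombined Hex, with and without array 2, of recombined Hex with wild type, and of unrecombined Hex with wild type. Hspa1b and Hspa1a lie to the right of 0 in the comparisons with recombined Hex on top, at 1.58 and 0.71 against unrecombined Hex, and Hsph1 lies at -0.81 once array 2 is left out.

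The other 5 genes did not pass between the Hex and wild-type groups, though their changes were not all smaller than those of the genes above. Hspa8, the constitutive cytosolic HSP70 (chr9:40801276-40805202), read 11.12, 11.20, 11.31 and 11.45 in recombined Hex cells, against 11.53, 10.54, 11.66 and 11.61 in unrecombined Hex cells and 11.93, 11.70, 11.48 and 11.80 in wild-type cells. The recombined arrays lay below all wild-type arrays and below all unrecombined arrays other than array 2. The change against wild type was -0.45 (SE 0.17, adjusted p = 0.485), and without array 2 in the fit the same change had an SE of 0.13 and an adjusted p of 0.0663. Against unrecombined Hex it was -0.06 (adjusted p = 0.888), or -0.33 without array 2 (adjusted p = 0.173).

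Dnaja1, a constitutive J-domain partner of Hspa8 (chr4:40722468-40734965), read 10.51, 10.11, 10.51 and 10.30 in recombined Hex cells, against 10.29, 9.07, 10.29 and 10.34 in unrecombined Hex cells and 10.66, 10.56, 10.30 and 10.53 in wild-type cells. The 3 groups overlapped. Its change against unrecombined Hex was 0.36 (adjusted p = 0.358) and 0.05 without array 2 (adjusted p = 0.895). Hsp90aa1, the stress-responsive cytosolic HSP90 (chr12:110691036-110696395), averaged 13.10 ± 0.12 in recombined Hex cells, 13.05 ± 0.26 in unrecombined Hex cells and 13.13 ± 0.22 in wild-type cells by its brighter probe set (SD, n = 4 each). The dimmer probe set ran from 4.41 to 5.01 in recombined Hex cells, from 4.52 to 6.64 in unrecombined Hex cells, with array 2 at the top, and from 4.09 to 4.80 in wild-type cells. It changed by -0.50 against unrecombined Hex (adjusted p = 0.330) and by -0.01 without array 2 (adjusted p = 0.983). The 2 probe sets thus differed in sign in this comparison, 0.05 against -0.50, with neither past the threshold. For the dimmer one, unrecombined Hex exceeded wild type by 0.73 with array 2 included, and did not pass.

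Hspd1 (HSP60), which folds proteins inside mitochondria, averaged 12.01 ± 0.07 in recombined Hex cells, 11.97 ± 0.62 in unrecombined Hex cells and 12.13 ± 0.15 in wild-type cells by the brighter probe set. The other probe set averaged 8.38 ± 0.23 in recombined Hex cells, 8.30 ± 0.12 in unrecombined Hex cells and 8.14 ± 0.17 in wild-type cells. Hspe1 (HSP10), its co-chaperonin, averaged 10.90 ± 0.17 in recombined Hex cells, 10.88 ± 0.45 in unrecombined Hex cells and 10.97 ± 0.21 in wild-type cells (SD, n = 4 each). Over all 11 groups the means of Hspe1 spanned 0.22 and those of the 2 Hspd1 probe sets 0.28 and 0.25, beside 1.58 for Hspa1b.

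**Figure D3:**
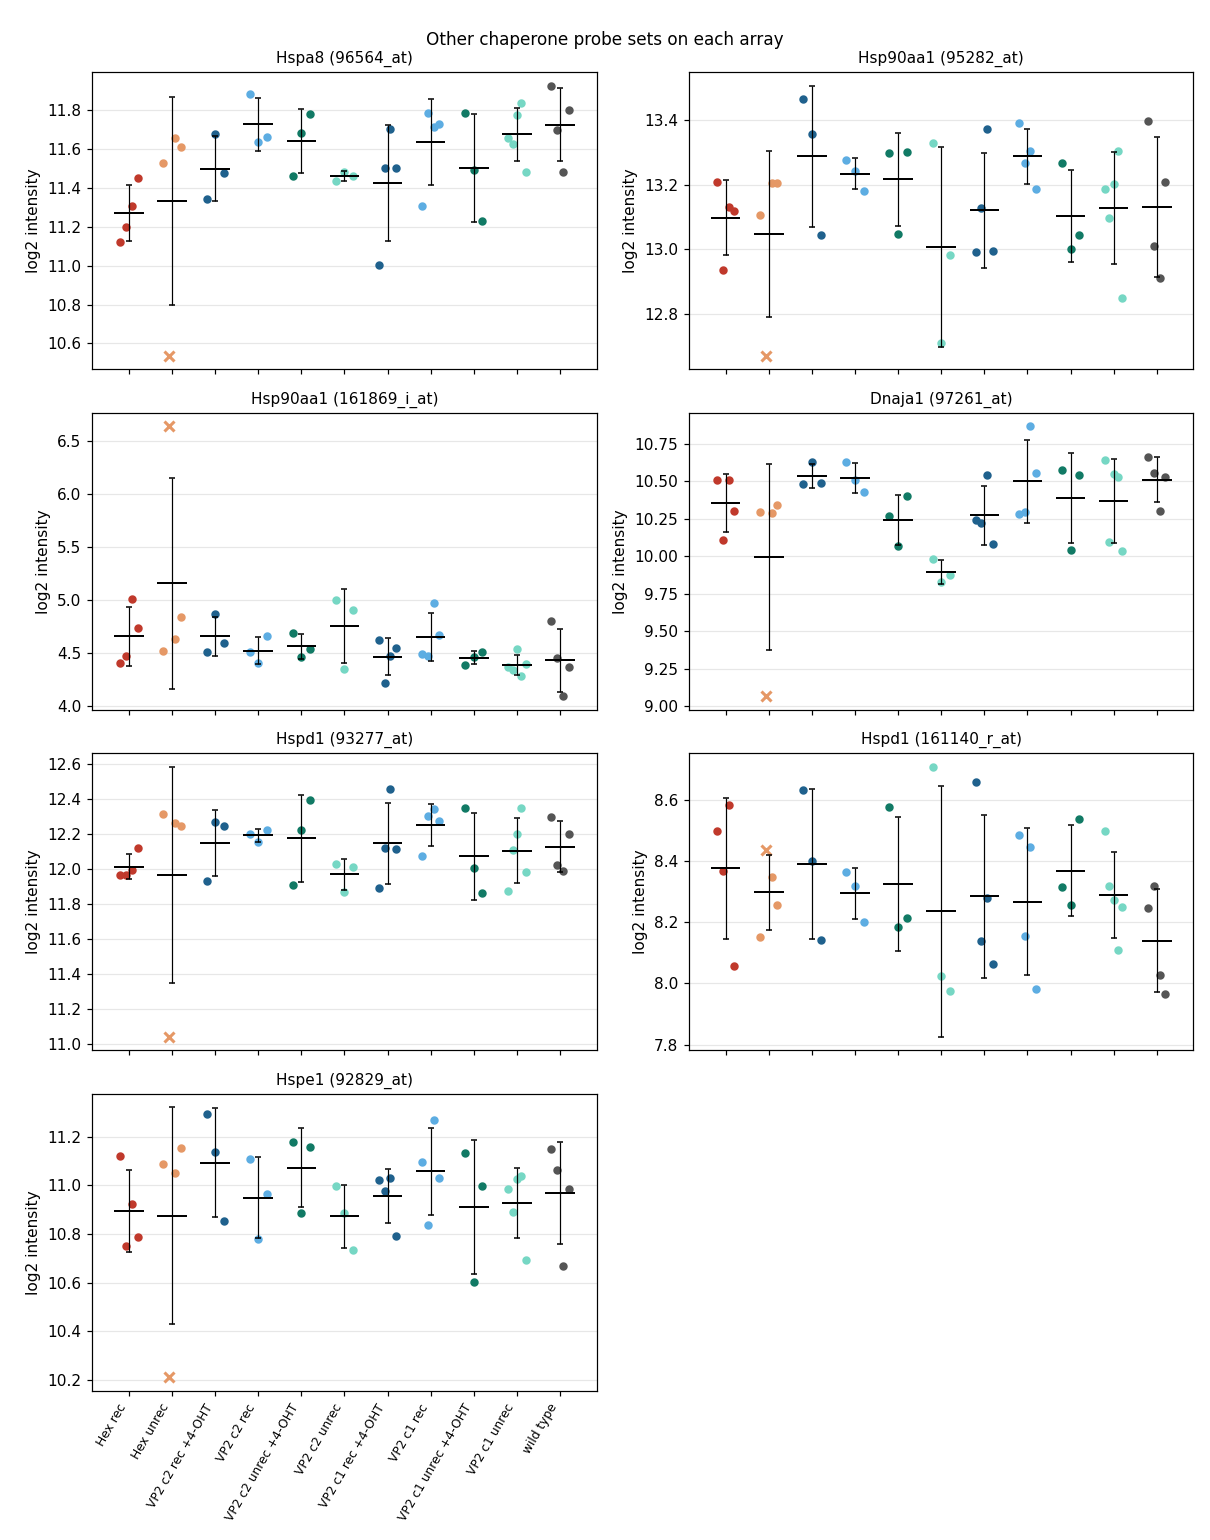
Log2 intensity (vertical axis) of the probe sets of Hspa8, Hsp90aa1 (2), Dnaja1, Hspd1 (2) and Hspe1 in each of 40 arrays, grouped along the horizontal axis with wild type last. Points are arrays, the cross is array 2 of unrecombined Hex, and bars give the mean ± SD. For Hspe1 the group means span 0.22, and for Dnaja1 and the brighter Hspd1 probe set array 2 lies at 9.07 and 11.04, below the other arrays of its group.

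The fusion HexERTVP2 was read before and after recombination in both clones. Hspa1b in clone 2 read 7.49, 7.48 and 6.93 after recombination without 4-OHT, against 6.72, 7.19 and 6.95 before it. In clone 1 it read 7.15, 7.38, 7.13 and 6.99 after recombination, against 7.04, 7.21, 6.90, 6.79 and 7.07 before it. The groups overlapped in both clones, and the change averaged over clones was 0.25 (SE 0.11, adjusted p = 0.366). Hspa1a changed by 0.10 (SE 0.06, adjusted p = 0.529). Dnaja1 read 10.63, 10.51 and 10.43 in recombined clone 2, against 9.98, 9.83 and 9.87 in unrecombined clone 2, with no overlap. In clone 1 it read 10.28, 10.29, 10.87 and 10.56, against 10.64, 10.10, 10.55, 10.53 and 10.04, and overlapped. Its change over both clones was 0.38 (SE 0.14, adjusted p = 0.302), and without array 2 of unrecombined Hex in the fit it passed (SE 0.10, adjusted p = 0.0334). It passed in 2 of 25 alternatives. With the β-actin 3′/5′ ratio (a control for RNA quality) as a covariate it did not (0.32, adjusted p = 0.295), nor with that ratio and array 2 left out (0.23, adjusted p = 0.0826). Members other than Dnaja1 were called in these fits, 1 with the ratio and 2 with the ratio and array 2 left out. Their names and the share of all probe sets called in these fits are not given here, so these counts are not a result about the members. Markers moved in the same groups: the mean over 9 primitive and visceral endoderm genes was 6.68 to 6.85 in recombined clone 2 arrays and 6.90 to 7.13 in unrecombined clone 2 arrays, and that over 15 pluripotency genes was 9.86 to 9.98 in the recombined and 9.56 to 9.71 in the unrecombined arrays. Their part in the change was not tested. Without array 2 in the fit, 7 pluripotency genes passed as higher and the endoderm gene Lama1 as lower with recombination over both clones, and 0 of either list passed with all arrays. With all arrays limma called 0 of 11 members in this comparison (2 at an unadjusted p under 0.05), where 0.467% of all probe sets were called. Without array 2 it called 1, where 3.38% of all were called.

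In 2 comparisons within clone 1, recombination without 4-OHT and 4-OHT in recombined cells, the same-numbered arrays deviated together. Both were therefore also fitted there as 4 pairs, an alternative chosen after seeing the data. Not all group pairs of clone 1 did so: recombined against unrecombined with 4-OHT ran from r = -0.34 to 0.67. For recombination without 4-OHT the differences of Hspa1b within the pairs were 0.11, 0.16, 0.23 and 0.20, all higher after recombination. The blocked change was 0.18 (SE 0.08) and did not pass (adjusted p = 0.314), and limma called 0 of 11 members (3 at an unadjusted p under 0.05), where 2.4% of all probe sets were called. The 3 were Hspa1b, the dimmer Hsp90aa1 probe set at 0.27, higher in every pair, and Hsph1 at -0.26, lower in every pair. For 4-OHT in recombined cells the Hspa1b differences were 0.06, 0.23, 0.03 and 0.15, all higher with 4-OHT. The blocked change was 0.12 (SE 0.07, adjusted p = 0.380), and limma called 0 of 11 members (2 at an unadjusted p under 0.05), where 3.4% of all were called. The 2 were not Hspa1b but Hspa8 at -0.21 and Dnaja1 at -0.23, both lower with 4-OHT in every pair.

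The difference between the 2 designs was tested directly. The change of Hspa1b with recombination was larger for Hex than for HexERTVP2 by 1.33 (SE 0.18, adjusted p = 3.04e-05), and that of Hspa1a by 0.61 (SE 0.09, adjusted p = 1.78e-04). Without array 2 these differences were 1.20 (adjusted p = 4.71e-05) and 0.56 (adjusted p = 1.94e-04), and that of Hsph1 was -0.89 (SE 0.17, adjusted p = 9.71e-04). With all arrays Hsph1 was at -0.44 (adjusted p = 0.514) and Dnajb1 at 0.86 (adjusted p = 0.185). In all, 2 of 11 members were called, where 1.94% of all probe sets were called, and 3 without array 2, where 8.16% were.

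Unrecombined HexERTVP2 cells without 4-OHT were also set against wild type. Hspa1a averaged 6.86 ± 0.13 in clone 2 (SD, n = 3) and 6.86 ± 0.07 in clone 1 (SD, n = 5), against 7.11 ± 0.05 in wild-type cells (SD, n = 4). No array of either clone reached the lowest wild-type array of 7.04. The change was -0.25 (SE 0.07, adjusted p = 0.0399). It passed in 14 of 22 alternatives, and was lost on leaving out any 1 wild-type array, array 1, 3 or 5 of clone 1, or array 3 of clone 2 (adjusted p up to 0.138). It was the 1 call among 11 members, where 1.46% of all probe sets were called and 1.14% were lower. Without array 2 of unrecombined Hex in the fit there were 3 calls, all lower, where 8.13% of all were called and 5.26% were lower: Hspa1a (adjusted p = 0.00824), Hspa1b at -0.37 (adjusted p = 0.0450) and Dnaja1 at -0.38 (adjusted p = 0.0458).

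Treatment with 4-OHT moved no member past the threshold. In recombined HexERTVP2 cells Hspa1b read 7.08, 6.92 and 7.35 with 4-OHT in clone 2, against 7.49, 7.48 and 6.93 without it. In clone 1 it read 7.22, 7.61, 7.16 and 7.14 with 4-OHT, against 7.15, 7.38, 7.13 and 6.99. The groups overlapped in both clones, and the change was -0.03 (95% confidence interval -0.25 to 0.19). Over the 11 probe sets the changes with 4-OHT in recombined cells lay between -0.22 (Hspa8) and 0.06 (Dnajb1), and no confidence interval reached beyond -0.48 or 0.46. In unrecombined cells they lay between -0.06 (Hsp90aa1) and 0.18 (Dnaja1), with intervals within -0.46 and 0.48. The limma fit called 0 of 11 in recombined cells (0 at an unadjusted p under 0.05), where 0.0322% of all probe sets were called. It also called 0 in unrecombined cells (0 at an unadjusted p under 0.05), where 0% of all were called. The interaction of 4-OHT with recombination called 0 (0 at an unadjusted p under 0.05), where 0.0161% were called. Without array 2 of unrecombined Hex in the fit these 3 comparisons again had 0 calls each (1, 0 and 0 at an unadjusted p under 0.05), where 0.145%, 0% and 0.0644% of all probe sets were called.

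The clones were compared over their 4 states. The limma fit called 0 of 11 members between clone 2 and clone 1 (0 at an unadjusted p under 0.05), where 1.22% of all probe sets were called. Without array 2 of unrecombined Hex it was also 0 (1 at an unadjusted p under 0.05), where 3.25% were called. Changes lay between -0.11 (Hsph1) and 0.26 (Dnajb1, SE 0.14, adjusted p = 0.791). How far the clones differed in their response to 4-OHT after recombination also had 0 calls (0 at an unadjusted p under 0.05), where 0% of all probe sets were called, and again 0 without array 2, with wide intervals that reached -1.09 and 1.11.

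**Figure D4:**
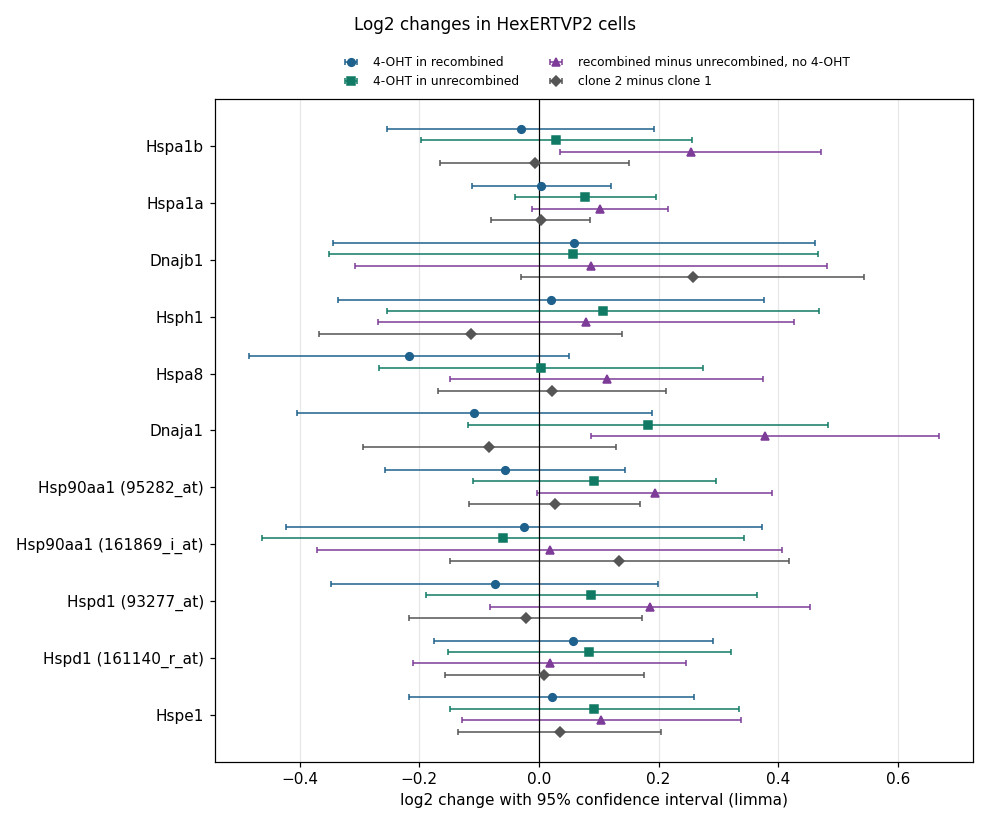
Log2 change (horizontal axis, with the 95% confidence interval from the fit) of the 11 member probe sets in HexERTVP2 cells. The comparisons are 4-OHT in recombined and in unrecombined cells, recombination without 4-OHT, and clone 2 against clone 1. The 4-OHT changes lie between -0.22 and 0.18 and all their intervals include 0. The changes between the clones lie between -0.11 and 0.26.

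The β-actin 3′/5′ ratio, a control for RNA quality, moved with some members. The log2 ratio of the 3′ to the 5′ β-actin control probe sets was 2.24 on array 2 of unrecombined Hex and 0.56 to 2.34 on the other 39 arrays. Over those 39 arrays, taken as deviations from their group means, Dnajb1 fell as the ratio rose (Pearson r = -0.88, Spearman rho = -0.88, both with p = 1e-05 by permutation, the lowest value 100000 resamples allow). Benjamini-Hochberg adjustment over the 11 relations tested gave 5.50e-05, and r was -0.86 without the 2 arrays farthest from the median ratio. For Hspa1b r was -0.66 (rho = -0.67, permutation p = 0.0001 and 0.0002, adjusted 2.75e-04 for r, r = -0.68 without the 2 arrays). Members that rose with the ratio were Dnaja1 (r = 0.73, rho = 0.74), Hspe1 (r = 0.70, rho = 0.70) and Hsp90aa1 (r = 0.57, rho = 0.60), with adjusted permutation p of 5.50e-05, 1.83e-04 and 0.00363. The dimmer probe sets of Hsp90aa1 (r = 0.56, rho = 0.52, adjusted permutation p = 0.00576) and Hspd1 (r = 0.47, rho = 0.43, adjusted permutation p = 0.0353) did so as well. For Hspa1a r was -0.18 (rho = -0.21, permutation p = 0.351). Whether these relations lie in RNA quality, in labelling or in the cells was not tested.

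The ratio differed little between recombined Hex and wild type (-0.05) and by -0.34 between recombined and unrecombined Hex (-0.09 without array 2). It differed by 0.44 with recombination of HexERTVP2, by -0.15 and 0.21 with 4-OHT in recombined and unrecombined cells, and by -0.26 between unrecombined HexERTVP2 and wild type. With the ratio as a covariate, recombined against unrecombined Hex gave 1.47 for Hspa1b (adjusted p = 1.73e-11) and 0.69 for Hspa1a (adjusted p = 7.12e-08). Dnajb1 was then at 0.73 (adjusted p = 0.00675), and at 0.43 (SE 0.09, adjusted p = 7.60e-04) when array 2 was left out as well, an alternative chosen after seeing the data. Beyond fits with the ratio as a covariate, its part in the differences was not tested.

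**Figure D5:**
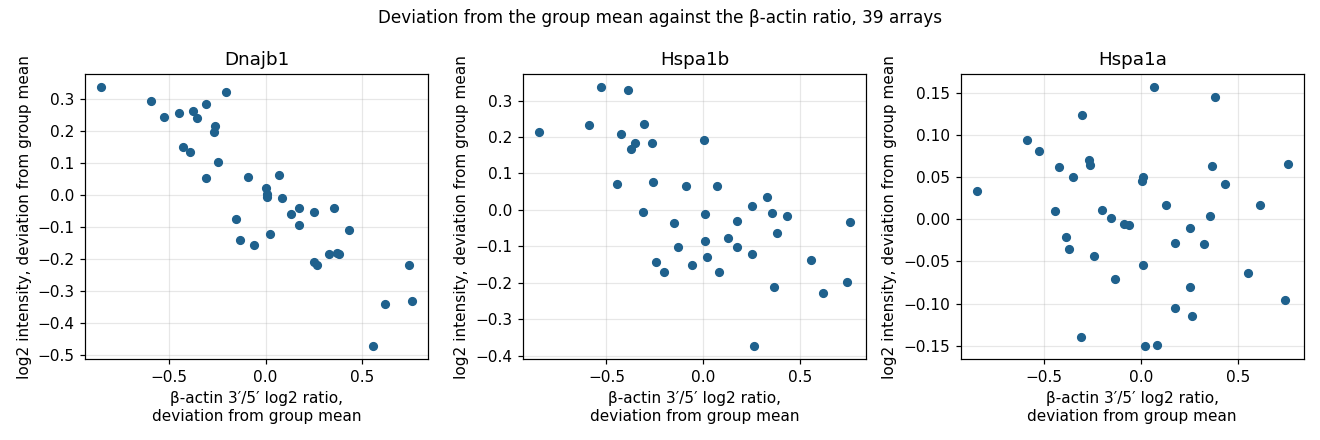
Deviation of log2 intensity from the group mean (vertical axis) against that of the β-actin 3′/5′ log2 ratio (horizontal axis) for Dnajb1, Hspa1b and Hspa1a. Points are 39 arrays, without array 2 of unrecombined Hex; Pearson r is -0.88, -0.66 and -0.18.

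Within groups some members moved together over the same 39 arrays, which share labelling and normalization. Of 55 pairs of probe sets, Hspa8 with the brighter Hspd1 probe set had r = 0.83 (rho = 0.81, 0.81 without the 2 farthest arrays, permutation p adjusted over the pairs = 1.83e-04). With the dimmer Hspd1 probe set it went the other way, at r = -0.44 (rho = -0.41, -0.30 without them, adjusted permutation p = 0.0381). The 2 Hspd1 probe sets had r = -0.43 with each other (adjusted permutation p = 0.0386), so the relation is not shown for the gene Hspd1. Dnaja1 with Hspe1 had r = 0.75 (rho = 0.75, 0.70 without them, adjusted permutation p = 1.83e-04). Hspa1b with Dnajb1 had r = 0.63 (rho = 0.63, 0.60 without them, adjusted permutation p = 0.00255). Hspa1a with Hspa1b had r = 0.52 (rho = 0.52, 0.52 without them, adjusted permutation p = 0.0213). In the other direction, Dnajb1 with Hspe1 had the lowest r of all pairs, -0.77 (rho = -0.76, -0.81 without them, adjusted permutation p = 1.83e-04). Dnaja1 with Dnajb1, the constitutive and the inducible J-domain member, had r = -0.68 (rho = -0.67, -0.63 without them, adjusted permutation p = 4.12e-04). The β-actin ratio moved with members of several of these pairs, and its part in them was not tested.

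A search for like patterns covered only probe sets of other genes with 1 symbol and a mean above the median probe set. The 5 whose 11 group means correlated best with those of each of the 3 members of widest range were taken. For Hspa1b they were Hspa1a (r = 0.94), Adam23 (r = 0.93, but 0.40 without array 2), Gm4802 (r = 0.90), Egln1 (r = 0.89) and Renbp (r = 0.88). For Hspa1a they were Hspa1b (r = 0.94), Lgals9 (r = 0.93), Gm4802 (r = 0.93), Wdr45 (r = 0.86) and Etnk1 (r = 0.86, but 0.64 without array 2). For Dnajb1 they were Rbpms (r = 0.99), Rab4a (r = 0.95), Agpat5 (r = 0.95), Ciao2b (r = 0.94) and Wwp2 (r = 0.94). The groups of arrays are few, and likeness over 11 means is a description.

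Other chaperone and stress genes were taken from lists of 108 measured genes in all. Between recombined and unrecombined Hex, 7 passed higher and 0 lower (17 at an unadjusted p under 0.05), or 6.48% of the list, beside 3.37% of all probe sets, with a median change of 0.06 beside 0.01. Without array 2 there were 9 higher and 5 lower, or 13.0% beside 6.26%. Among 18 genes listed as induced by HSF1, 2 passed higher: Sqstm1, an autophagy receptor, at 0.79 (SE 0.08, adjusted p = 7.59e-08), and Serpinh1, the collagen chaperone, at 0.77 (adjusted p = 0.0483). Without array 2 there were 3, Sqstm1 at 0.76, the stress transcription factor Atf3 at 0.36 and the small heat shock protein Hspb8 at 0.34, and Serpinh1 no longer passed. Sqstm1 averaged 9.28 ± 0.06 in recombined Hex cells, 8.49 ± 0.12 in unrecombined Hex cells and 9.42 ± 0.07 in wild-type cells (SD, n = 4 each), so recombined cells were near wild type and unrecombined cells were low.

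Of 24 J-domain genes of the HSP40 family, 2 passed higher, Dnajc7 at 1.60 (SE 0.32, adjusted p = 0.00203) and Dnaja2 at 0.67 (adjusted p = 0.00906). In Dnajc7 too the unrecombined cells were the low ones, with 10.57 ± 0.35 in recombined Hex cells, 8.97 ± 1.05 in unrecombined Hex cells and 10.70 ± 0.16 in wild-type cells (SD, n = 4 each). Of 23 endoplasmic reticulum chaperone and unfolded protein response genes, 2 passed higher, the transcription factor Xbp1 at 1.29 (adjusted p = 0.0249) and Herpud1, a part of endoplasmic reticulum associated degradation, at 0.40 (adjusted p = 0.00526). Of 3 heat shock factor genes, 1 passed, the HSF1-binding protein gene Hsbp1 at 0.53 (adjusted p = 0.0185), and not without array 2. Without array 2 Dnajc7 was at 1.08, Dnaja2 at 0.40 and Xbp1 at 0.60, and all 3 still passed. With all arrays none passed among 8 HSP70 and HSP110 genes, 21 co-chaperones, 5 small heat shock proteins, 14 TRiC and prefoldin subunits and 10 mitochondrial chaperones and proteases. Without array 2 the 5 lower genes were Dnajc21 at -0.71 (adjusted p = 0.00249), Bag1, a nucleotide exchange factor of HSP70, at -0.61, Hspa9, the mitochondrial HSP70, at -0.52, and the stress transcription factors Atf6 at -0.38 and Atf4 at -0.27. The small heat shock protein Hspb2 at 0.25 and the co-chaperone Bag2 at 0.23 passed as higher there.

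Against wild type, recombined Hex had 0 of the 108 genes called by limma (13 at an unadjusted p under 0.05), and 2 lower without array 2, Dnajc21 at -0.73 (adjusted p = 0.00277) and the HSP90 co-chaperone Fkbp4 at -0.23 (adjusted p = 0.0492). Unrecombined Hex against wild type had 1 higher, Atf4 at 0.31, and 8 lower, or 8.33% of the list beside 4.82% of all probe sets. The lower ones included Dnajc7 at -1.73, Xbp1 at -1.30, Sqstm1 at -0.93, the disulphide isomerase Pdia3 at -0.88 and the co-chaperone Bag3 at -0.64. Without array 2 there were 6 lower and 1 higher, or 6.48% beside 3.63%, with Dnajc7 at -1.21 and Xbp1 at -0.60, and Pdia3 and Bag3 did not pass. Unrecombined HexERTVP2 against wild type had 4 lower and 0 higher, or 3.70% of the list beside 1.46% of all: Dnajc21 at -0.75, Dnajc3 at -0.51, Sel1l at -0.32 and Sqstm1 at -0.31. Without array 2 in the fit there were 11 lower, among them the endoplasmic reticulum HSP70 Hspa5 at -0.55 (adjusted p = 0.0348), and 3 higher, or 13.0% of the list beside 8.13% of all. With recombination of HexERTVP2 limma called 0 of 108 (15 at an unadjusted p under 0.05), and 4 higher and 1 lower without array 2, or 4.63% beside 3.38%. The 4 were Xbp1 at 0.57, Dnajc21 at 0.50, Dnaja2 at 0.41 and Dnajb6 at 0.34, and Atf4 was the lower one at -0.22. With 4-OHT limma called 0 of 108 in recombined and 0 in unrecombined cells (1 at an unadjusted p under 0.05 in each), and again 0 in both without array 2 (5 and 4 at an unadjusted p under 0.05). Between clone 2 and clone 1, Hsbp1 was higher by 0.34 (adjusted p = 0.00707) and Sqstm1 lower at -0.34 (adjusted p = 1.08e-05), or 1.85% of the list beside 1.22% of all. Without array 2 there were 3 higher and 3 lower, or 5.56% beside 3.25%, with Dnaja2 at 0.19, Herpud1 at 0.16, Xbp1 at -0.47 and Bag3 at -0.31 added.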

How the data were processed

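The authors deposited 1 intensity per probe set and array, made with RMA per the submitters' processing notes, which give no version. The deposited intensities are linear and were converted to log2 here. Which arrays were normalized together is not given in the sources used here. Of 12488 probe sets, 66 controls were left out and 12422 were tested. The platform annotation gave 1 symbol to 10833 probe sets, several to 396 and none to 1193. The number of arrays limits the precision.

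In 4 arrays the title's words and array code named different clones or treatments, so these took part in no comparison. The other 40 arrays were fitted together by group with limma 3.58.1 under R 4.3.3, using lmFit and eBayes and leaving 29 degrees of freedom for the residuals, for 11 comparisons and a moderated F test. Correlations and promoter counts used Python 3.11.15 and numpy 2.4.6, and figures matplotlib 3.10.9. On simulated data the fit found 89% of changes of log2 1 and 49% of changes of 0.5 in the Hex comparison, with 6.12% false calls (200 of 12422 probe sets changed).

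The members and lists were chosen with earlier results of these data known. The rule for names took every member, up to 4 passing genes per list and comparison with the largest change, and the 5 probe sets most like each of 3 members. Genes outside it were named after their values were seen. Alternatives were normalization, filter, moderation, array weights, arrays fitted, replicate block, the β-actin ratio and left-out arrays.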

Additional observations from a re-analysis of the deposited data

Results flagged for a closer look

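Of 66 combinations of a group of 4 or 5 arrays with 1 of the 11 probe sets, 11 held an array that stood apart from the rest by Dixon's test, where chance gives about 1 in 20. Array 2 of unrecombined Hex accounted for 7 of them. Its gap to the nearest array, as a share of the group's range, was 0.887 for Hspa8 (10.54, nearest 11.53), 0.875 for Hsph1 (8.71, nearest 10.40), 0.956 for Dnaja1 (9.07, nearest 10.29) and 0.906 for Dnajb1 (5.65, nearest 7.43). It was 0.944 for the brighter Hspd1 probe set (11.04, nearest 12.25), 0.888 for Hspe1 (10.21, nearest 11.05) and 0.848 for the dimmer Hsp90aa1 probe set, the only one of the 7 in which that array was high (6.64, nearest 4.84).

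The other 4 were single arrays in other groups. Array 4 of recombined clone 1 without 4-OHT was low for Hspa1a (6.81, nearest 6.99, share 0.847), and array 1 of the same group was low for Hspa8 (11.31, nearest 11.72, share 0.852). Array 2 of recombined clone 1 with 4-OHT was high for Hspa1b (7.61, nearest 7.22, share 0.836). Array 4 of recombined Hex was high for Hsph1 (9.88, nearest 9.63, share 0.854).

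The change with recombination differed between Hex and HexERTVP2 by the tested difference of the 2 changes, 1.33 on the log2 scale for Hspa1b (adjusted p = 3.04e-05) and 0.61 for Hspa1a (adjusted p = 1.78e-04). Hspa1b was higher in 4 of 4 recombined Hex arrays than in all 4 unrecombined ones.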

How the results depend on the processing

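Hspa1b passed in all 17 alternatives of recombined against unrecombined Hex, with changes from 1.42 to 1.64, and in all 18 against wild type (at least 0.83). Hspa1a passed in 16 of 17 and in 18 of 18, the exception being the fit of the 2 Hex groups alone (adjusted p = 0.136). Dnajb1 passed in 11 of 17. It did not with median-centred arrays, in the fit of the 2 groups alone, without array 2 of unrecombined Hex or without array 1, 2 or 4 of recombined Hex (adjusted p up to 0.978). No called value changed sign.

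The number of members called in recombined against unrecombined Hex (3) was 1 with only these groups fitted, 2 with median-centred arrays, 4 with array weights, 4 with the β-actin ratio and array 2 left out, and 2 to 3 with an array left out. For unrecombined Hex against wild type (1) it was 2 with array weights, 0 with only these groups, 2 with the β-actin ratio and 1 to 5 with an array left out; without array 1 it was 5 and without array 3 it was 4. For recombination of HexERTVP2 (0) it was 1 with array weights, 1 with the β-actin ratio, 2 with that ratio and array 2 left out, and 0 to 1 with an array left out. For clone 2 against clone 1 (0) it was 1 with array weights and 1 with the ratio and array 2 left out. For unrecombined HexERTVP2 against wild type (1) it was 3 with array weights, 2 with the ratio, 5 with the ratio and array 2 left out, and 0 to 3 with an array left out; each wild-type array, arrays 1, 3 and 5 of clone 1 and array 3 of clone 2 gave 0. For the difference between Hex and HexERTVP2 (2) it was 5 with array weights and 2 to 3 with an array left out. For any difference among groups (2) it was 6 with array weights, 5 with the ratio and array 2 left out, and 2 to 3 with an array left out. The share of all probe sets called moves between fits as well, for any difference among groups from 5.17% to 12.9% without array 2. It is not given here for the other alternatives, so these counts describe the fits and are not results about the members. The causes were not tested. The replicate block gave 1.58 for Hspa1b (adjusted p = 6.34e-09) and 0.95 for Dnajb1 (adjusted p = 0.0435), and changed no count of members called. Replicate numbers do not pair the arrays throughout: of 173 same-numbered pairs between groups, the deviations from the group means correlated over 0.1 in 88 and below -0.1 in 61. Every pair was over 0.1 in 7 of the 48 group pairs with 3 or more, among them, in clone 1, recombined with against without 4-OHT (0.31 to 0.82) and recombined against unrecombined without 4-OHT (0.34 to 0.60). With these arrays in pairs, 422 and 298 probe sets were called, against 0 and 27 without the block, and 0 members in either.

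Intensities have no detection calls here, groups hold 3 to 5 arrays, and dim probe sets such as the second one of Hsp90aa1 have unknown background.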

Other observations

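The 4 arrays whose labels contradict themselves took part in no comparison. Hspa1b read 6.88, 7.01, 7.04 and 7.18 on them and Hspa1a 6.98, 7.06, 7.08 and 7.05, all below every recombined Hex array (lowest 8.11 and 7.59). Dnajb1, which encodes the inducible partner of HSP70, read 6.73, 7.95, 7.45 and 7.91, a wider spread than that of Hspa1a on the same arrays. Hsph1 read 10.20, 9.91, 9.77 and 10.04.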
